A study of Mus musculus with 2 samples.

Results

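Nucleolar ribosome biogenesis factors are the proteins that transcribe, modify, cut and fold ribosomal RNA in the nucleolus and build it into the small (40S) and large (60S) ribosomal subunits. The genes described here were a list of 35 named factors, and their members were all probe sets of the array whose only annotated gene symbol was on that list. In total, 34 of the 35 genes had such a probe set, out of 18193 genes on the array, and 71 of 45101 probe sets belonged to them. Expression was measured in whole hearts of male C57BL/6J mice, 10 weeks old, at 3 days after a permanent tie of the left anterior descending artery of the heart (infarct) or after the same operation without ligation (sham). No transgene or further treatment was named for either group. Each group is a pool of RNA from 3 mice on 1 array, so the comparison is that of 1 infarct pool with 1 sham pool. There were no replicates and no test was possible, and the spread between mice is unknown.

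Ribosome assembly begins with a long precursor RNA made by RNA polymerase I. Small nucleolar ribonucleoproteins (snoRNPs) of the box C/D kind guide 2′-O-methylation of that precursor, those of the box H/ACA kind guide pseudouridylation, and the U3 snoRNP sits in the small subunit processome, which cuts out the RNA of the 40S subunit. Further assembly factors, helicases and GTPases mature the 60S subunit. Growing and dividing cells make many ribosomes, and transcription factors of the MYC family are known to act on these genes.

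Values are RMA values on the log2 scale, and every difference is infarct minus sham. For each gene, the probe set with the highest mean over both arrays was used, and the gene was compared when its value was at or above the array median (6.36 for sham, 6.35 for infarct) on at least 1 array. All 34 factors passed, and only Nop58 passed through the infarct pool alone. Between probe sets of one gene, differences had an SD of 0.23 over 5190 genes and of 0.19 over the 20 factors with at least 2 bright probe sets. This SD covers probes and not mice. The zero of the scale is uncertain. The mean difference of 8 housekeeping genes (of 12 listed) was 0.40, from -0.44 for Sdha to 0.55 for Ywhaz, 0.82 for Actb and 1.12 for Gusb. Actb had another bright probe set at -0.62, so the 0.40 depends on the probe set chosen. The mean difference of 18 hybridisation control probe sets was -0.32, and that of 24 poly-A control probe sets was 0.057. Which of these zeros is right was not tested.

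As deposited, the nucleolar factors had mostly higher values in the infarct pool, by modest amounts, while relative to the housekeeping genes they lay on both sides of 0. Of the 34 factors, 32 lay above 0, 1 lay below it (Rrp9) and 1 had the same value in both pools (Polr1b); over all 11961 genes compared, 49.5% lay above 0. With the housekeeping genes set to 0, 16 of the 34 factors lay above 0, where 16.9% of all genes did, and with the hybridisation controls set to 0 all 34 factors did, where 81.9% of all genes did. At least 1.5-fold higher were 9 factors (26.5%), against 10.3% of all genes compared. Only Nop58 was at least 2-fold higher, where 3.73% of all genes were. None was at least 1.5-fold or 2-fold lower, against 6.32% and 1.26% of all genes. The median difference of the factors was 0.38, and that of all genes compared was 0. Centring moved both medians by the same amount, to -0.018 and -0.40 for the housekeeping genes and to 0.70 and 0.32 for the hybridisation controls. With respect to the probe disagreement of 0.23, 24 factors lay higher than it, 10 lay within it on either side of 0, and none lay lower. In all genes, 27.6% lay above 0.23. In pooled whole hearts, a shift in the number of cells of a kind and a shift in RNA per cell cannot be told apart.

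**Figure D1:**
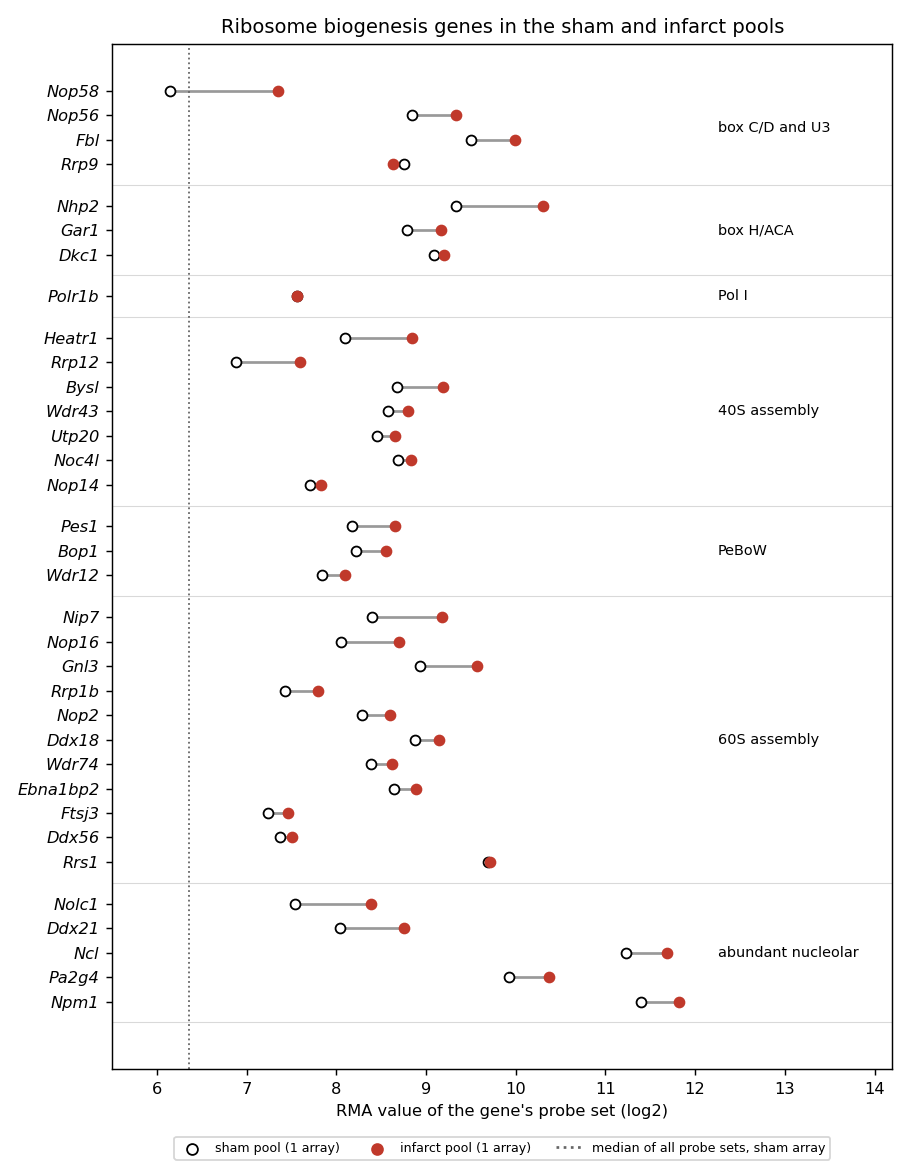
RMA values (log2, x axis) of the probe set used for each of the 34 nucleolar factors for sham (open circles) and infarct (red), 1 array each, grouped by role; the dotted line is the median of all probe sets on the sham array. As deposited, the infarct value lay higher for 32 genes, against 49.5% of all genes compared, and lower for Rrp9. With the housekeeping genes set to 0, where 16.9% of all genes lay above 0, 16 of the 32 turned below it.

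The proteins of the box C/D snoRNP included the highest of all factors. Nop58, a scaffold protein of the particle, had a value of 6.15 (sham) and 7.35 (infarct), a difference of 1.20 (2.30-fold). This gene has 1 probe set, and its sham value was dimmer than the array median, so the size of the difference rests on a weak signal. Nop56, the paralogue that forms the scaffold together with Nop58, had values of 8.84 and 9.34 (difference 0.50), and its other probe set differed by 0.48. Fbl, which encodes the methyltransferase fibrillarin, had 9.50 and 9.99 (0.50), with 0.66 at its other probe set. Both differed by more than the probe SD as deposited, but by only 0.097 and 0.095 with the housekeeping genes set to 0. By contrast, Rrp9, a protein specific to the U3 snoRNP, was the one factor with a lower value in the infarct pool (8.76 and 8.63, difference -0.13), a difference within the probe SD that lay at 0.19 with the hybridisation controls set to 0. The remaining core protein of box C/D particles, Snu13, is not on the list, and its probe sets also carry a further symbol; they differed by -0.0053 and 0.18.

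The box H/ACA proteins differed by unlike amounts. Nhp2, an RNA-binding protein of the particle, was the next highest factor after Nop58, with 9.34 (sham) and 10.31 (infarct; difference 0.97, 1.96-fold). Its other probe set gave 0.92, so that both probe sets lay close to 2-fold. Gar1 had 8.78 and 9.17 (0.39), at a single probe set of a kind that can bind several transcripts. It was not compared where such probe sets were removed. The probe sets used for Nhp2, Nop56 and Fbl are of that kind too, but their other probe sets are not. Dkc1, which encodes the pseudouridine synthase dyskerin, had 9.09 and 9.20 (0.11), with 3 probe sets between 0.078 and 0.11. Nop10, which completes the particle but is not on the list of 35, had 12.09 and 11.90 (-0.19), or 0.13 with the hybridisation controls set to 0. Centring cannot change the gap between Nhp2 and Dkc1, the highest and lowest of the listed box H/ACA proteins. This gap was several times the probe SD, which is a spread between probe sets of one gene. With the housekeeping genes set to 0 only Nhp2 stayed above 0 (0.57), whereas Gar1 lay at -0.012.

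Sequences upstream of the transcription start are shown for the highest factors, Nop58 and Nhp2, for Nop2, the one factor with an E-box in this upstream stretch, and for Rrp9, the lowest. They are the 250 bases before the RefSeq start site in GRCm38.p6, read 5′ to 3′ on the strand of the gene, at chr1:59684756-59685005 (Nop58, + strand), chr11:51619523-51619772 (Nhp2, + strand), chr6:125131633-125131882 (Nop2, + strand) and chr9:106477059-106477308 (Rrp9, + strand). Capitals mark the E-box CACGTG, to which MYC with its partner MAX binds, and CCGGAAGT, a core motif of ETS factors, on either strand.
Nop58: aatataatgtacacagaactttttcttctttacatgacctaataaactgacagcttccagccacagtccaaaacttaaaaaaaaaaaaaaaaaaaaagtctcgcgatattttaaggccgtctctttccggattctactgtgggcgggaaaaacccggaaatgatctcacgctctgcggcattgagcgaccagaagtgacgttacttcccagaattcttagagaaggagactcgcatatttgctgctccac
Nhp2: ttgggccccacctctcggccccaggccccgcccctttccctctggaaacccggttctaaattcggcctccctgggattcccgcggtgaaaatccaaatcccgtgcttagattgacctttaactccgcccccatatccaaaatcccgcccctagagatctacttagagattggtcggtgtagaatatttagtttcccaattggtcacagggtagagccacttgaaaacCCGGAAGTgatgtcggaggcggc
Nop2: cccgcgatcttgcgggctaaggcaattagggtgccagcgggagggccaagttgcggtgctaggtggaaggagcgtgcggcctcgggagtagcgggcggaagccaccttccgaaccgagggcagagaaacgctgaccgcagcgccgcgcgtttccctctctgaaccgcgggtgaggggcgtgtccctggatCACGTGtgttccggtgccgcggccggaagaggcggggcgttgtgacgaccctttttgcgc
Rrp9: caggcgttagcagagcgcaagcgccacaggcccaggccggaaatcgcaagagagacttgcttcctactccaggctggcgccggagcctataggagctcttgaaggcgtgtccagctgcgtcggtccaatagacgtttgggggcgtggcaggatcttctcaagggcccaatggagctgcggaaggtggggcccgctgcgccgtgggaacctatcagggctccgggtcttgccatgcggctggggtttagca

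Promoter windows (250 bases before and 50 after the start) were held for 30 of the 35 genes, with 33 windows in all. CACGTG, which reads alike on both strands, was found in 4 of the 33 windows (12.1%), those of Nop2, Pes1, Utp20 and Wdr43. It was found in 7.15% of all 32851 windows and in 9.75% of those of genes compared, so the share of the factors was near the background. The median difference of these 4 genes was 0.27, and that of the 25 factors compared whose windows had no E-box was 0.39. CCGGAAGT, searched on both strands, was found in 6 windows (18.2%), those of Gar1, Ebna1bp2, Nip7, Nhp2, Heatr1 and Wdr74, against 3.89% of all windows and 7.40% of those of genes compared. In these genes it began between 103 and 3 bases before the start. CCAAT was found in 27.3% of the windows of the factors and in 36.9% of those of genes compared, and AAGATGGC, a motif of YY1, in 3.03% and 4.20%. In the windows of the factors no 2 different motifs overlapped, and a match is a description of letters and not a site of binding.

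RNA polymerase I genes had mostly small differences at the probe sets used. Polr1b, which encodes a subunit of its catalytic core, had exactly the same value in both pools (7.56, 1 probe set), as had 1155 of the 45101 probe sets. The other 14 genes of the polymerase and its initiation factors had a median of 0.10, and none was past 1.5-fold, against 10.3% of all genes. Above 0 lay 10 as deposited, 1 with the housekeeping genes set to 0 and 12 with the hybridisation controls set to 0. The shares of all genes were 49.5%, 16.9% and 81.9%. With the dimmest passing probe set of each gene, 2 were past 1.5-fold, against 9.9% of all genes. The highest was Taf1d, of the promoter selectivity factor SL1 (0.51, with 4 probe sets from 0.13 to 0.71), followed by the polymerase subunits Cd3eap (0.31, dim in the sham pool) and Znrd1 (0.24). Tcof1 (0.15), Polr1e (0.14), Twistnb (0.13), Polr1c (0.11), Taf1b (0.096), Taf1c (0.087) and Ubtf, the upstream binding factor of ribosomal DNA (0.070), lay within the probe SD. Polr1d (-0.016) and the initiation factor Rrn3 (-0.12) did so too, but the 4 bright probe sets of Polr1d ran up to 0.65. Below it lay Polr1a, the largest subunit (-0.34), and Taf1a (-0.36), although the probe sets of Polr1a ran from -0.34 to 0.055.

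Factors of the small subunit processome and 40S assembly comprised a higher pair, an uncertain one and a group near 0. Heatr1, a processome protein that is also needed for ribosomal DNA transcription, had 8.09 (sham) and 8.84 (infarct), a difference of 0.75 (1.68-fold), with 0.44 at its other bright probe set. Rrp12, which takes part in subunit export, had 6.88 and 7.60 (0.72, 1 probe set). Both stayed above 0 with the housekeeping genes set to 0 (0.35 and 0.32). Bysl, a late 40S assembly factor, had 8.68 and 9.18 (0.51), but its other probe set, with 8.91 and 8.81, gave -0.094. The direction of Bysl therefore depends on the probe set chosen. Wdr43 (0.22), Utp20 (0.20), Noc4l (8.68 and 8.84, difference 0.16, with 4 probe sets from -0.014 to 0.27) and its partner Nop14 (0.12) lay within the probe SD. All of them lay below 0 with the housekeeping genes set to 0, where 16.9% of all genes lay above it. The median of these 7 genes was 0.22.

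Among 60S factors is the PeBoW complex, which is required to process the RNA of the large subunit. At the probe sets used, its genes had small differences, all above 0 as deposited. Pes1 had 8.17 and 8.66 (0.48), Bop1 had 8.22 and 8.56 (0.33), and Wdr12 had 7.84 and 8.09 (0.25). Further probe sets of Wdr12, dim on both arrays, gave -0.035 and -0.15. With the housekeeping genes set to 0 Pes1 alone lay above 0 (0.084). The other probe set of Pes1 (0.31 as deposited) differed by less than the 0.40 of the housekeeping genes. Of the other 60S factors, 3 of 11 were at least 1.5-fold higher, against 10.3% of all genes compared. Nip7, which binds pre-ribosomes, had 8.40 (sham) and 9.18 (infarct), a difference of 0.78 (1.72-fold), while its other probe set gave 0.23. Nop16 had 8.06 and 8.70 (0.64), with -0.13 at a probe set dimmer than the median of both arrays. Gnl3, which encodes the GTPase nucleostemin, a protein of stem and dividing cells, had 8.93 and 9.57 (0.64, 1 probe set). At the probe sets used, these 3 genes stayed above 0 under each centring. The other probe set of Nip7 (0.23) differed by less than the 0.40 of the housekeeping genes.

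With the housekeeping genes set to 0, where 16.9% of all genes lay above 0, the remaining 8 of these 60S factors all lay below it. As deposited these 8 lay between 0.026 and 0.38. They were Rrp1b (0.38, with 3 probe sets from 0.014), the RNA methyltransferase Nop2 (0.31), the helicase Ddx18 (0.27), Wdr74 (0.24), Ebna1bp2 (0.24), the methyltransferase Ftsj3 (0.22), the helicase Ddx56 (0.13) and Rrs1, which acts in assembly of the 5S particle (0.026). The probe sets of Rrs1 lay on either side of 0, with 9.69 and 9.71 (0.026) at one and 9.17 and 9.16 (-0.015) at the other, and the higher one belongs to a kind that can bind several transcripts. Mrto4 had no probe set of its own: its probe set also carries the symbols of pseudogenes, and it had 9.25 and 9.59 (0.34).

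At the probe sets used, the 5 factors grouped as abundant nucleolar proteins and helicase had higher values in the infarct pool under each centring. The name of the group does not rank their values on these arrays. The smallest margin was 0.026 (Npm1, housekeeping genes set to 0), which lies within the probe SD. Some other bright probe sets of Nolc1, Ncl and Pa2g4 differed by less than the 0.40 of the housekeeping genes. Nolc1, a chaperone of snoRNPs, had 7.54 (sham) and 8.39 (infarct), a difference of 0.84 (1.80-fold). Its 3 probe sets disagreed, with 0.37 and -0.019 at the others. Ddx21, a helicase that acts in transcription and processing of ribosomal RNA, had 8.04 and 8.75 (0.71), with 0.67 at its other probe set, and both probe sets lay past 1.5-fold. Ncl, which encodes nucleolin, had 11.23 and 11.69 (0.46), and its 4 bright probe sets lay between 0.13 and 0.46. Npm1, which encodes the chaperone nucleophosmin, had 11.39 and 11.82 (0.43), with 0.57 at its other probe set. Pa2g4, a growth-linked protein of the nucleolus and ribosome, had 9.93 and 10.37 (0.45), and its 4 bright probe sets lay between 0.20 and 0.45. Thus Ncl, Npm1 and Pa2g4 were close to each other as deposited and close to 0 with the housekeeping genes set to 0 (0.055, 0.026 and 0.045).

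**Figure D2:**
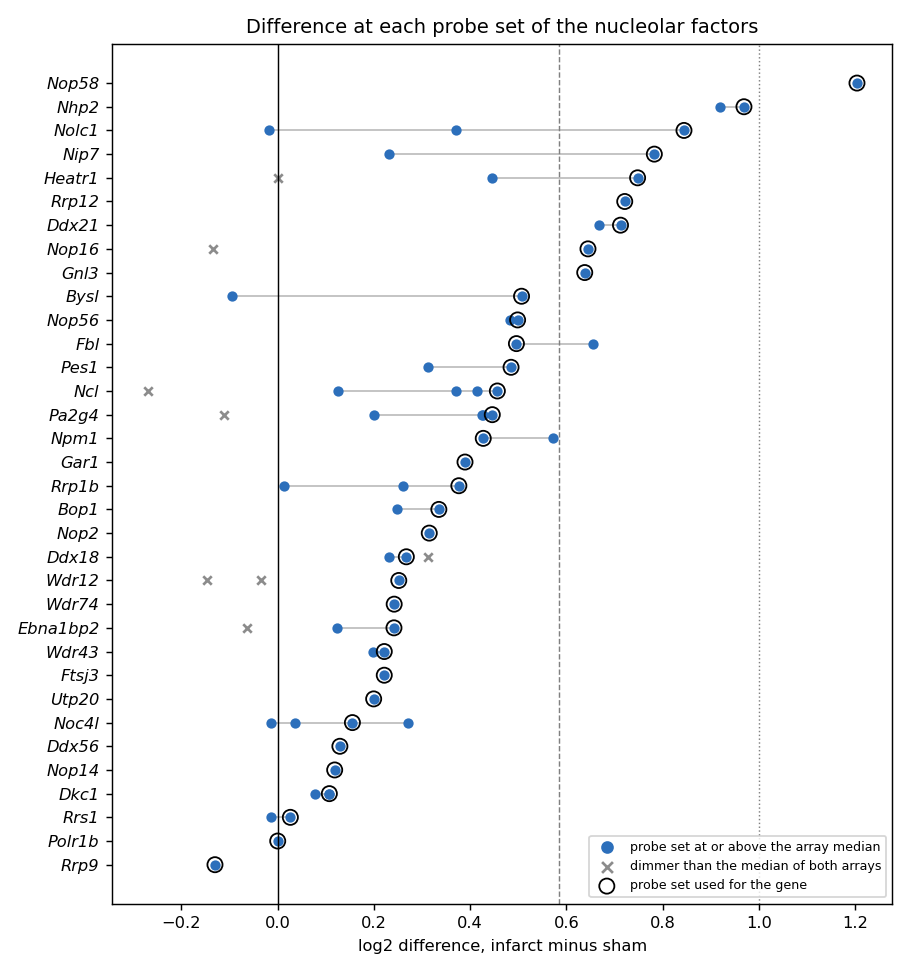
Log2 difference (x axis, infarct minus sham) at every probe set of the 34 nucleolar factors, with probe sets at or above the array median in blue, dimmer ones as grey crosses and the one used for the gene circled; the dashed line marks 1.5-fold and the dotted line 2-fold. Of 63 bright probe sets 57 lay above 0 as deposited. Over all genes compared, with 1 probe set each, 49.5% did, which is a share of genes and not of probe sets. Nolc1, Bysl, Noc4l and Rrs1 had probe sets on both sides of 0.

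As deposited, 57 of the 63 bright probe sets of the factors lay above 0, 5 lay below it and 1 was equal in both pools. Over all genes compared, with 1 probe set each, 49.5% lay above 0. The probe sets were not counted with the housekeeping genes set to 0. Of the 8 dim probe sets 1 lay above 0, 6 lay below it and 1 was equal (from -0.27 to 0.31). The dim probe sets of all genes were not counted by direction. The counts of bright and dim probe sets cannot be set against each other, since a higher infarct value can itself make a probe set bright. It did so for Nop58 and for 1 further probe set each of Bop1 and Heatr1. Of the 20 factors with at least 2 bright probe sets, 16 had all of them above 0, and in Nolc1, Bysl, Noc4l and Rrs1 they lay on both sides. The same was not counted over the 5190 genes with at least 2 bright probe sets, so whether 16 of 20 is unusual is unknown. Over the 20 factors, the median gap between the lowest and highest bright probe set was 0.15. The other 14 factors rest on 1 bright probe set each, Nop58, Rrp12, Gnl3 and Nop16 among them.

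**Figure D3:**
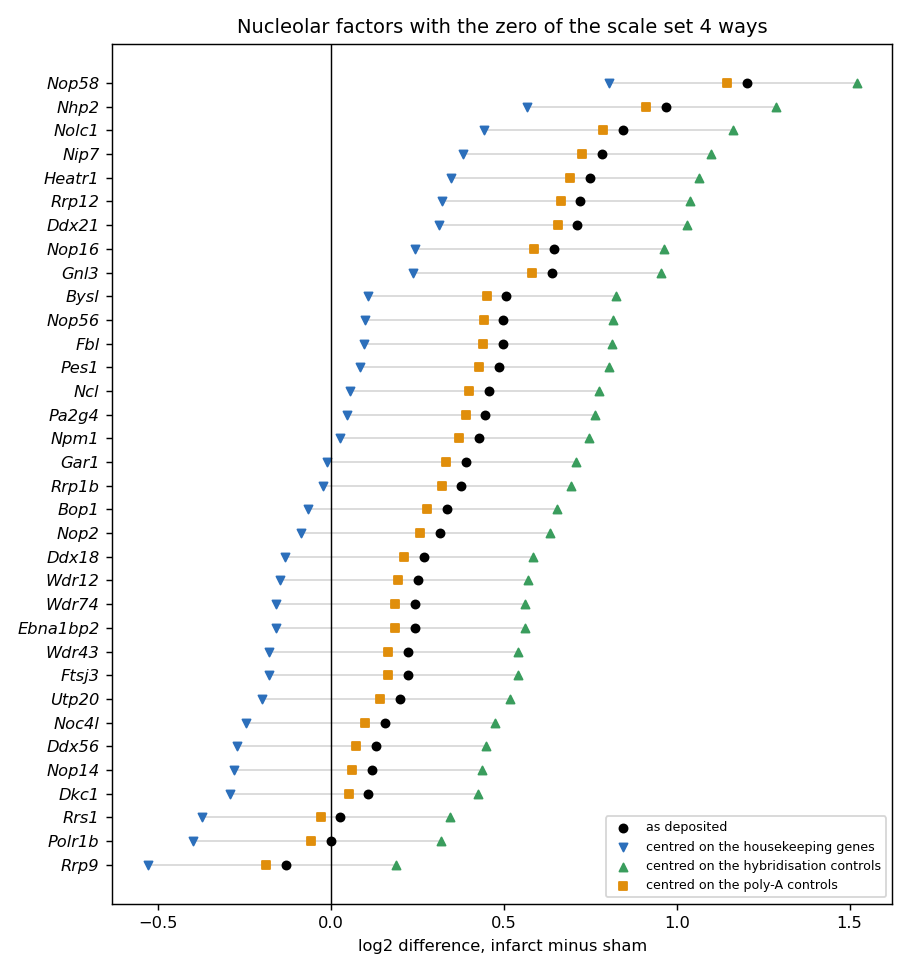
Log2 difference (x axis, infarct minus sham) of each nucleolar factor as deposited (black) and after centring each array on the housekeeping genes (blue), the hybridisation controls (green) or the poly-A controls (orange). At the probe set used, the 16 factors from Nop58 (1.20) to Npm1 (0.43) lay above 0 in all 4. Other bright probe sets of Nolc1 (-0.019) and Bysl (-0.094) lay below 0 as deposited. The 16 factors from Gar1 (0.39) to Rrs1 (0.026) lay below 0 with the housekeeping genes, where 16.9% of all genes lay above it.

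The wider set of ribosome biogenesis genes was as deposited higher in the infarct pool by less, and relative to the housekeeping genes its share above 0 was near that of all genes. Of 105 other factors, 101 were compared, and 79 of them lay above 0, against 49.5% of all genes. This number was 15 with the housekeeping genes set to 0, where 16.9% of all genes lay above 0. With the hybridisation controls set to 0 it was all 101, where 81.9% of all genes did. The median of these factors was 0.17, and 5 (4.95%, against 10.3% of all genes) were at least 1.5-fold higher, none 2-fold. The 35 factors were listed with earlier results of these arrays known, so that their higher median is no independent evidence that they stand apart. The highest were Zfp593, a 60S assembly factor (0.79), Eif6, which keeps the subunits apart (0.74, but 0.063 at another probe set), the 40S factor Tsr1 (0.71), Utp18 (0.63), Nifk, a nucleolar partner of Ki-67 (0.63), and Utp6 (0.57, but -0.20 at another probe set). At the probe sets used, the first 5 of these were past 1.5-fold and stayed above 0 under each centring. The other probe set of Eif6 differed by less than the 0.40 of the housekeeping genes. Lowest were Nol8 (-0.31), the GTPase Gnl2 (-0.27), Nop53 (-0.23), Ddx24 (-0.20), Nol6 (-0.20) and Nop10 (-0.19), all of which lay above 0 with the hybridisation controls set to 0.

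Ribosomal protein genes, whose products are assembled by these factors, differed by origin. Against 49.5% of all genes, all 43 cytosolic ribosomal protein genes compared (of 79 listed) lay above 0, with a median of 0.29. Of them 5 (11.6%) were past 1.5-fold, near the 10.3% of all genes, and 7 lay above 0 with the housekeeping genes set to 0, a share near the 16.9% of all genes. Rpl14 (0.97), Rps25 (0.75) and Rpl12 (0.68) were the highest. Their sham values (6.56, 7.62 and 6.97) were lower than those of most genes of the list. Rpl41, also past 1.5-fold, had a sham value of 13.22 and a difference of 0.59. In contrast, 65 of 75 mitochondrial ribosomal protein genes lay below 0 (median -0.23), led by Mrpl55 (-0.59), Mrpl14 (-0.57) and Mrps24 (-0.57). With the hybridisation controls set to 0, 51 of the 75 lay above 0, where 81.9% of all genes did. As both medians move together with the zero, the gap between the mitochondrial list and the nucleolar factors did not depend on it. Translation initiation factors had a median of 0.067 over 29 genes, and Eif1a (1.32) and the paralogous helicase genes Eif4a1 (0.68) and Eif4a2 (-0.45) were farthest from 0. The RNA exosome, which trims the ends of ribosomal RNA precursors, had a median of 0.077 over 13 genes, and its largest differences were those of Dis3 (0.60), Exosc2 (0.41) and Exosc8 (0.33). The medians of both lists lay below 0 with the housekeeping genes set to 0.

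**Figure D4:**
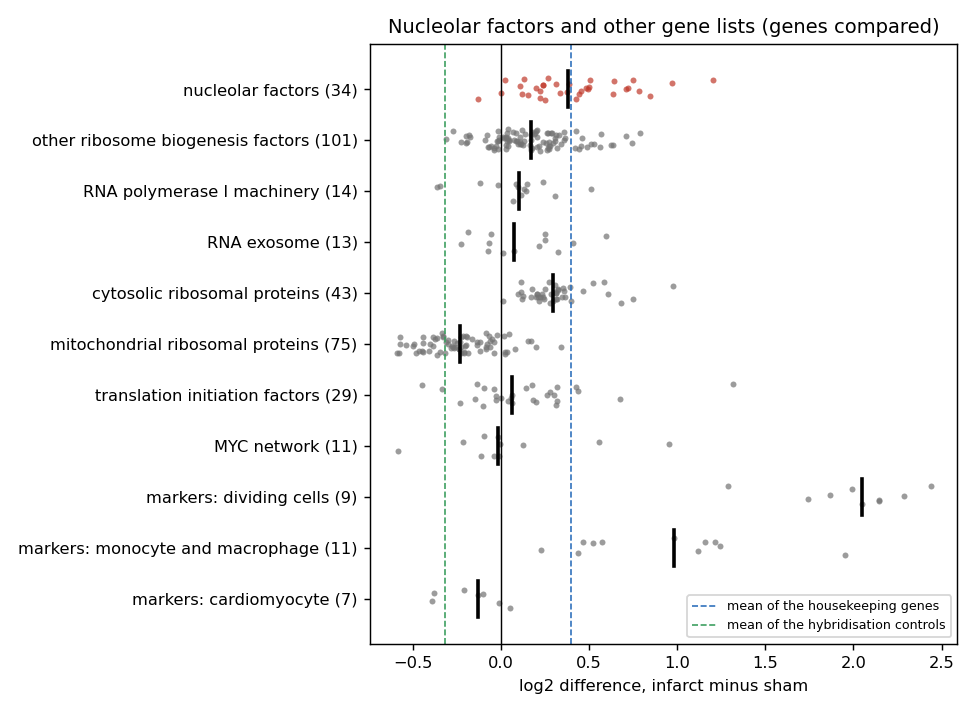
Log2 difference (x axis, infarct minus sham) of each gene compared (points, spread vertically for visibility) in the nucleolar factors (red) and other lists, with the number of genes in brackets, the median of each list as a black bar and dashed lines at the means of the housekeeping genes and hybridisation controls. The factors had a median of 0.38, other biogenesis factors 0.17, cytosolic ribosomal proteins 0.29 and mitochondrial ones -0.23; relative to the housekeeping genes these medians were -0.018, -0.23, -0.11 and -0.63.

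Of the MYC network, Myc itself had 6.83 (sham) and 7.78 (infarct), a difference of 0.96 (1 probe set), and it stayed above 0 under each centring. Mxi1, an antagonist of MYC, had 9.71 and 9.13 (-0.58, with -0.46 at its other probe set) and stayed below 0 under each centring. Mxd3, an antagonist that is made in dividing cells, had 6.86 and 7.41 (0.56), and its 3 probe sets ran from 0.56 to 1.03, past the value of Myc. The remaining genes lay within the probe SD: Max (0.12), Mlx (-0.0043), Mga (-0.0086), Mnt (-0.018), Mxd1 (-0.041), Mycn (-0.095), Mxd4 (-0.11) and Mlxip (-0.22). Mycl was dim on both arrays. Whether Myc acted on the nucleolar factors was not tested. Of genes linked to nucleolar stress and p53, 7 were compared. The cell cycle inhibitor gene Cdkn1a had 8.56 and 9.89 (1.33, 0.92 with the housekeeping genes set to 0), and Mdm2, whose protein is bound by free ribosomal proteins, had 8.69 and 9.07 (0.38, -0.020 after that centring). Rpl11, one of those ribosomal proteins, differed by 0.39, Mdm4 by 0.064, Bbc3 by -0.13 and Ccng1 by -0.37, and Cdkn2a was dim on both arrays. Sesn2 differed by -0.12 at one probe set and by 0.46 at the other, so its direction is not settled. With the hybridisation controls set to 0, Ccng1 alone of these lay below 0 (-0.052).

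Several factors hold small nucleolar RNA genes within their bounds, as box C/D and H/ACA RNAs are commonly cut from the introns of such genes. In the RefSeq annotation of GRCm38.p6, 6 of the 34 factors (17.6%) held 18 snoRNA genes, against 2.18% of 11626 genes compared. Nop56 held 5, Nop58 held 4, Gnl3 and Wdr43 held 3 each, Ncl held 2 and Dkc1 held 1; Snord57 and Snord110 lie in Nop56, and Snord11 and Snord70 in Nop58. These 6 genes had differences from 0.11 (Dkc1) to 1.20 (Nop58), with a median of 0.48, and the 28 others had a median of 0.36. Another 248 genes that hold a snoRNA gene had a median of 0.042, with 22 past 1.5-fold, a share close to the 10.3% of all genes. The probe sets report the host gene and not the snoRNAs.

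Markers of several cell types differed between the pools as well. All 7 cardiomyocyte markers were bright on both arrays, from 12.62 to 14.89, with differences from -0.39 (Ryr2), -0.38 (Tnni3) and -0.21 (Pln) to 0.055 (Actc1). Other bright probe sets of these genes lay lower, down to -0.67 for Myh6, -0.66 for Ryr2 and -0.60 for Tnnt2. With the hybridisation controls set to 0, 5 of the 7 lay above 0, where 81.9% of all genes did. All 9 markers of dividing cells compared were past 2-fold, with higher infarct values (1.29 to 2.44, median 2.05), led by Bub1 (2.44), Mki67 (2.28) and Top2a (2.14), and Bub1 and Aurkb were dim in the sham pool. Markers of monocytes and macrophages, 11 in all, each lay above 0 (0.23 to 1.95, median 0.98), led by Msr1 (1.95), Cd68 (1.24) and Itgam (1.22), and Csf1r (0.23) turned to -0.17 with the housekeeping genes set to 0. Of neutrophil markers, S100a8 (1.72), S100a9 (1.54) and Csf3r (1.11) were bright on both arrays, Cxcr2 (0.45) passed only through the infarct pool, and Mpo and Elane were dim on both arrays. Fibroblast markers ran from -0.34 (Dcn) to 0.60 (Col1a2), 0.65 (Col1a1) and 1.28 (Postn). Over their bright probe sets, Col1a1 ran down to 0.19, Dcn down to -0.72, Col1a2 up to 1.07 and Pdgfra from -0.14 to 0.28. Endothelial markers ran from -0.15 (Tek) to 0.24 (Cdh5) and 0.56 (Pecam1), and only 1 lymphocyte marker, Cd3e (-0.042), was bright enough to compare. Other bright probe sets ran down to 1.17 for Top2a, 1.06 for Msr1 and 0.35 for Ccr2, and up to 2.09 for Aurkb. The part of these cells in the values of the nucleolar factors was not tested.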

How the data were processed

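Total RNA of 3 hearts per group was pooled by the authors and labelled as biotinylated cRNA for Affymetrix mouse GeneChips, with 1 chip to a pool. The deposited values are log2 values made with RMA (per the labels), a method that takes off background, brings both arrays to one distribution and joins the probes of a set into one value. The RMA software is not given in the sources used here. A change in total mRNA therefore cannot be seen. No scanner file was used, and precision is limited by having 1 array for each group.

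Gene symbols came from the platform annotation given by GEO: 34945 had 1 gene symbol, 932 several and 9160 none. The 71 probe sets of the factors all matched a RefSeq gene of GRCm38.p6 by Entrez identifier. Control probe sets (64) entered no count of genes, and 18 and 24 of them served for centring.

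Genes were counted past differences of 1 (2-fold) and 0.58 (1.5-fold). With 1 array per group no p-value was computed. The factors and the other lists were chosen with earlier results of these data known. All factors are reported, with the 12 largest and 3 lowest in full, as are those whose bright probe sets disagree in sign, the 6 highest and lowest other biogenesis genes, and the 3 compared genes farthest from 0 of each further list (all genes for the polymerase, MYC and p53 lists). Scaling, probe set choice and brightness filter were varied. The counting was checked on simulated data. Python 3.11.15, numpy 2.4.6, pandas 2.3.3, statsmodels 0.14.6 (loess, span 0.4) and matplotlib 3.10.9 were used.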

Additional observations from a re-analysis of the deposited data

How the results depend on the processing

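The zero of the scale decided most of what changed. With the arrays centred on the housekeeping genes, the median difference of the nucleolar factors was -0.018, 16 lay above 0, 1 was at least 1.5-fold higher (3.82% of all genes) and 0 were 2-fold higher (1.49%). With centring on the hybridisation controls the median was 0.70, and 21 factors were past 1.5-fold (24.7% of all genes) and 7 past 2-fold (8.04%). The medians of the cytosolic ribosomal proteins (-0.11), the 60S factors (-0.13), the PeBoW complex (-0.066) and the box H/ACA proteins (-0.012) were negative after that first centring, and that of the mitochondrial ribosomal proteins lay at 0.086 after the second. Both follow from the offset that the centring subtracts. The mean over all probe sets of a gene left 5 factors past 1.5-fold (8.82% of all genes), and a filter at the 75th percentile left 0 past 2-fold (4.14%), since it removed Nop58. Counted as probe sets, 57 of 63 lay above 0 as deposited. The 49.5% of all genes compared is a share of genes, with 1 probe set each, and so is not a like count. Under the other settings run (centring on the array medians or on the poly-A controls, quantile normalization, removal of a loess trend, removal of probe sets open to cross-hybridisation, the dimmest passing probe set, no filter, a filter on the mean), the median of the factors lay between 0.26 and 0.40, and from 30 to 33 lay above 0. Rrs1 changed sign under 4 of these and Bysl under 1. No paired analysis was possible because each group has 1 array, and no sample could be left out.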

Other observations

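The array carries 3 control probe sets for mouse 18S ribosomal RNA itself, along its 5′ end, middle and 3′ end. Their values were 8.85, 8.73 and 8.62 in the sham pool and 7.88, 8.31 and 8.32 in the infarct pool, so that all lay lower in the infarct pool, by -0.97 at the 5′ end, -0.43 in the middle and -0.30 at the 3′ end. After subtraction of the -0.32 of the hybridisation controls, the 3′ probe set would no longer lie below 0. How much ribosomal RNA enters the labelled cRNA was not tested.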
